A study of Rattus norvegicus with 4 samples.

Results

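The collagen and laminin genes of the rat liver were described across 4 single-cell libraries. All gene symbols of the deposited matrices that spell a collagen chain (Col, a number, a, a number) or a laminin chain (Lama, Lamb or Lamc and a digit) were taken, which gave 53 of 22118 symbols: 43 collagens and 10 laminins. Of the 53, 3 had no UMI (unique molecular identifier, a count of 1 captured RNA molecule) in any library, namely Col19a1, Col23a1 and Col9a1, and 12, those 3 included, had under 10. A further 41 had at least 10 UMIs, 28 had at least 100 and 11 had at least 1000.

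Livers of Lewis rats were profiled in 4 states, with 1 library each, so that treatment, animal and preparation cannot be told apart. NEVLPcty was perfused ex vivo for 4 h at 37 °C with IL-10 and TGF-β added, NEVLP2 was perfused for 4 h at 37 °C without them, CS was stored cold for 4 h at 4 °C, and naive was neither stored nor perfused. These readings of the group names come from the design text of the series, and the digit in NEVLP2 is not explained there. The perfusate listed with the samples held William's E medium, albumin, heparin, papaverine, insulin, hydrocortisone and Lewis red cells, and neither the way cells were freed from the tissue nor any enrichment is described in the labels. The labels state no sex or age of the animals. The comparison of NEVLPcty with NEVLP2 asks how matrix genes stood after perfusion with the added cytokines. TGF-β is the textbook inducer of fibrillar collagen in activated stellate cells.

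Collagens are trimers of chains that build the fibres and sheets of the extracellular matrix, and laminins are trimers of an alpha, a beta and a gamma chain that, with collagen IV, build basement membranes. In healthy liver the sinusoids have no continuous basement membrane, collagen IV and some laminin lie in the space between endothelium and hepatocytes, and fibrillar collagen comes mainly from stellate cells and portal fibroblasts. Sinusoidal endothelium is a known source of collagen IV, and hepatocytes are a known source of collagen XVIII.

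Col4a1 and Col4a2 are transcribed away from each other from 1 shared stretch of DNA, as are Col4a3 and Col4a4. The stretch of Col4a1 and Col4a2 and the upstream DNA of Col4a4 and Lama5 are shown because the collagen IV pairs and Lama5 carry the main differences below. In RefSeq, build GRCr8, 76 bases separate the starts of Col4a1 and Col4a2 on chromosome 16, and 412 separate those of Col4a3 and Col4a4 on chromosome 9. Capitals mark CAGAC or its reverse complement GTCTG (letters that SMAD proteins, the transcription factors downstream of TGF-β, can bind) and GGGCGG or its reverse complement CCGCCC (the GC box bound by Sp1 and its relatives). The sequences run 5′ to 3′ on the strand named.
Col4a1 and Col4a2, chr16:84885521-84885596, plus strand: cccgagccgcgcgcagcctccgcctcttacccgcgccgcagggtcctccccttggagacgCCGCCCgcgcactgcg
Col4a4, chr9:91323578-91323827, minus strand: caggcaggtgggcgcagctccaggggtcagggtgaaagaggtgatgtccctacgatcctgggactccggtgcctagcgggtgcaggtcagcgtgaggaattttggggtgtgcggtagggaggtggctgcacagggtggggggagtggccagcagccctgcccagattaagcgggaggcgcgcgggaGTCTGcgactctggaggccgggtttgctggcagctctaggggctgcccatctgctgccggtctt
Lama5, chr3:187695975-187696224, minus strand: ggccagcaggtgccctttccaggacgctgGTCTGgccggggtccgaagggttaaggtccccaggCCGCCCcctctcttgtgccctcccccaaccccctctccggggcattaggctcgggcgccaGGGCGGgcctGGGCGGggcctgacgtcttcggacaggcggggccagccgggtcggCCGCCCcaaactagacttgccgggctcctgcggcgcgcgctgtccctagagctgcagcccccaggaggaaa
The stretch between Col4a1 and Col4a2 held 1 GC box and no CAGAC, the 250 bases before Col4a4 held 1 CAGAC, and those before Lama5 held 1 CAGAC and 4 GC boxes. RefSeq gave such a stretch for 42 of the 53 genes. Both strands of the 250 bases before each start were searched. CAGAC (reverse complement GTCTG) was in 17 of the 42 (40.5%), against 42.9% of all 33469 RefSeq stretches of that length. The palindrome GTCTAGAC, another sequence that SMAD proteins bind, was in 0 of the 42, against 0.173%. GGGCGG (reverse complement CCGCCC) was in 24 of the 42 (57.1%), against 30.5%. The CCAAT box (reverse complement ATTGG) was in 13 of the 42 (31.0%), against 34.0%. A match is a description of letters and not of a bound site.

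The deposited matrices held 11763 (NEVLPcty), 10646 (NEVLP2), 11200 (CS) and 3920 (naive) barcodes with 25609611 to 72271060 UMIs, of which 10537, 9356, 9865 and 3213 cells were kept in that order. Pairs of libraries shared 11 to 35 barcodes. Clusters were made without the collagen and laminin genes and named from marker genes, with the suffix -like. The naming by fold over all other cells, tried first, left large clusters with endothelial transcripts unnamed, and the naming used here, by fold over the cells of clusters led by other marker lists, was chosen after marker levels had been seen. Endothelial-like cells, marked by Cdh5, Stab2 and Lyve1, numbered 6088 in NEVLPcty (57.8%), 2589 in NEVLP2 (27.7%), 4026 in CS (40.8%) and 61 in naive (1.90%). Their median depth was 5800.5, 5373, 5709.5 and 831 UMIs in the same libraries, so naive endothelial values rest on few and shallow cells. The endothelial-like class was held by different clusters in each library: 5059 of the 6088 NEVLPcty cells were in cluster 0, 2125 of the 2589 NEVLP2 cells in cluster 3, 2997 of the 4026 CS cells in cluster 2 and 35 of the 61 naive cells in cluster 3. Hepatocyte-like cells numbered 1352, 3501, 854 and 1039, and T-, NK- and B-like cells, which served as background, 652, 644, 855 and 615 in NEVLPcty, NEVLP2, CS and naive. The hepatocyte-like class too was held by different clusters: 1064 of the 1352 NEVLPcty cells were in cluster 7, 3242 of the 3501 NEVLP2 cells in cluster 1, 796 of the 854 CS cells in cluster 5 and 656 of the 1039 naive cells in cluster 13. Cluster 4 was also led by the hepatocyte list but stayed unnamed, with a median depth of 1272 UMIs. It held 224 NEVLPcty, 28 NEVLP2, 1460 CS and 525 naive cells. Hepatocyte-like counts and levels leave these cells out, which in CS outnumber the class.

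Endothelial-like cells held 92.6% of the 152104 collagen and laminin UMIs (94.2% in NEVLPcty, 93.1% in NEVLP2, 90.5% in CS and 49.7% in naive). Hepatocyte-like cells held 0.7%. Of the 41 genes with at least 10 UMIs, 28 had their largest share in endothelial-like cells. Those shares ran from 26.1% for Col5a3 to 98.6% for Col24a1. The endothelial-like class was also the largest, with 12764 of the 32971 retained cells. How far the size of the class sets the count of 28 was not tested. The endothelial share was 66.9% at a finer clustering resolution, 46.0% with a stricter mitochondrial limit and 74.7% with clusters named by fold over all other cells. The cause of these moves was not tested.

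**Figure D1:**
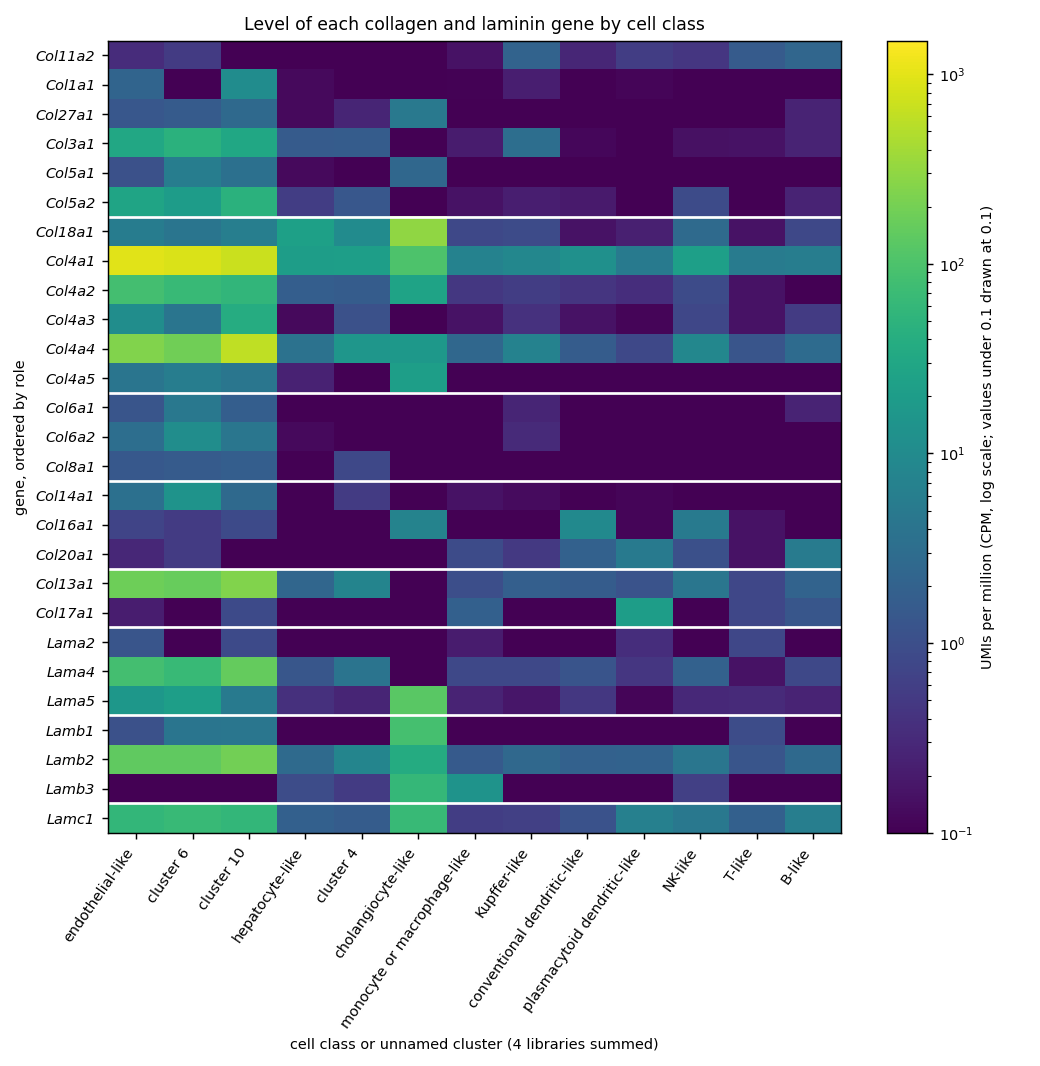
Level of 27 genes with at least 100 UMIs (rows, grouped by role) in each cell class or unnamed cluster (columns), in CPM on a log colour scale, the 4 libraries summed. Along a row, Col4a1, Col4a2, Col4a4, Lama4 and Lamb2 are brightest in endothelial-like cells and clusters 6 and 10, whereas Lama5, Lamb1, Lamb3 and Col18a1 are brightest in the 35 cholangiocyte-like cells and Col17a1 in plasmacytoid dendritic-like cells; levels are not per length, so rows are not compared with each other.

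Whether any cluster carried the stellate or fibroblast name turned on the naming. By fold over the cells of clusters led by other lists none did, in any of the clusterings tried. By fold over all other cells, clusters 6 and 30 did, with 976 NEVLPcty, 184 NEVLP2, 153 CS and 2 naive cells. The CS cells were all in cluster 30 and nearly all perfused ones in cluster 6. In cluster 6, Colec10, Colec11, Lrat and Bgn led, and it held 973 NEVLPcty, 183 NEVLP2, 0 CS and 2 naive cells. Endothelial transcripts led in it as well (Cdh5 at 738 CPM, the gene's UMIs scaled to a common total of each class, in NEVLPcty and 494 CPM in NEVLP2). The 13 stellate or fibroblast markers summed to 1326 CPM in NEVLPcty and 1657 CPM in NEVLP2, with Lum at 0 in both. In NEVLP2, Dcn and Pdgfrb were also at 0. In endothelial-like cells the same 13 markers summed to 596 CPM in NEVLPcty, 591 CPM in NEVLP2, 407 CPM in CS and 339 CPM in naive. The part of stellate transcripts in the endothelial values was not tested. Cluster 30, endothelial-like in the naming used, had the stellate or fibroblast list second, with a mean log2 fold of 1.40 against 3.24 for the endothelial list. Cluster 6 held 2.1% of collagen and laminin UMIs and cluster 10, unnamed and almost wholly from CS, 1.6%.

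Under the naming that gave clusters 6 and 30 the stellate or fibroblast name, Lamc1, Lamb2 and Col4a1 were higher in NEVLPcty than in NEVLP2 beyond counting error, and the fibrillar collagens were not. Each endothelial marker measured in these cells was also higher in NEVLPcty, such as Kdr (936 and 526 CPM) and Egfl7 (2357 and 1347 CPM). Of the stellate markers, Ecm1 (261 and 497 CPM) and Bgn (193 and 300 CPM) were lower, whereas Lrat (269 and 255 CPM) and Colec11 (250 and 234 CPM) were near level. The part of endothelial transcripts in the ratios below was not tested. Of 14 members measured in NEVLPcty over NEVLP2, 2 (Lama5 and Lamc1) were at least 2-fold higher, where 17.2% of all 7562 genes were, and 2 (Col5a1 and Col18a1) were lower, where 7.38% were. Their median was 0.41 on the log2 scale and that of all genes 0.24. Lamc1 stood at 71.6 CPM in NEVLPcty and 20.5 CPM in NEVLP2 (5 UMIs), a ratio of 3.49 (1.45 to 10.9), Lamb2 at 154 CPM and 82.2 CPM, a ratio of 1.88 (1.19 to 3.12), and Col4a1 at 886 CPM and 645 CPM, a ratio of 1.37 (1.16 to 1.63). Among fibrillar collagens, Col3a1 was at 1.20 (0.62 to 2.60), Col5a2 at 0.69 (0.30 to 1.85) and Col5a1, on 7 NEVLPcty and 4 NEVLP2 UMIs, at 0.26 (0.065 to 1.19), and no cell of cluster 6 had a Col1a1 UMI. In NEVLP2 over CS, where cluster 6 is set against cluster 30, 2 of 17 (Col13a1 and Col4a1) were higher and 6 lower, where 13.5% and 36.4% of all genes were. Col3a1 stood at 41.1 CPM in NEVLP2 and 1142 CPM in CS, a ratio of 0.036 (0.017 to 0.066), and the 120 CS UMIs of Col1a1 faced 0 in NEVLP2, which is at least 8.85-fold lower with a floor of 3 UMIs. The naive library, with 2 such cells, was not compared.

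Type I collagen, the main fibre of scar tissue, was nearly confined to a few cells. Col1a1 had 192 UMIs in all: 30 in NEVLPcty, 15 in NEVLP2, 145 in CS and 2 in naive. There were 18 cells with at least 2 of the 5 fibroblast transcripts Dcn, Lum, Pdgfra, Pdgfrb and Tcf21 (5 in NEVLPcty, 3 in NEVLP2, 10 in CS and 0 in naive), and these held 148 of the 192 Col1a1 UMIs (77.1%). The 3 cells with the most Col1a1 held 51.6% of them. Col1a2, the partner chain of Col1a1 in the type I trimer, had 6 UMIs in all. The same 18 cells held 91 of 276 Col6a2 UMIs (33.0%) and 236 of 2649 Col3a1 UMIs (8.91%), but only 104 of 76486 Col4a1 UMIs (0.14%). Col6a2 is a chain of the beaded collagen VI and Col3a1 forms the reticular fibres of the liver. Cluster 30 alone held 120 of the 192 Col1a1 UMIs (62.5%), in 5 of its 157 cells, and 1259 of the Col3a1 UMIs (47.5%), in 76 of them (48.4%). Whether these 18 are fibroblasts or droplets with more than 1 cell was not tested.

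Several members had their largest share outside the endothelium. Lamb3, a beta chain of epithelial laminin, had 261 of 330 UMIs (79.1%) in monocyte or macrophage-like cells. It stood at 31.2 CPM there in NEVLPcty, 24.2 CPM in NEVLP2, 3.19 CPM in CS and 5.19 CPM in naive. A single cluster, 18, with 146 NEVLPcty and 468 NEVLP2 cells and 2 CS cells, held 201 of the 330. Lamb1, a beta chain widely used in embryonic and adult laminins, had 81 of 136 UMIs (59.6%) in endothelial-like cells, but 36 (26.5%) were in cholangiocyte-like cells, in 18 of the 35.

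Other collagens had their largest share in dendritic-like, Kupffer-like and NK-like cells. Col17a1, a transmembrane collagen of epithelial anchoring junctions, had 182 of 250 UMIs (72.8%) in plasmacytoid dendritic-like cells. Its level there was 14.9 CPM in NEVLPcty, 5.45 CPM in NEVLP2, 37.8 CPM in CS and 40.7 CPM in naive, lowest in NEVLP2. The libraries filled different clusters here as well: 61 NEVLPcty and 303 NEVLP2 cells were in cluster 24, and 192 CS and 77 naive cells in cluster 26. Cluster 26 held 142 of the Col17a1 UMIs. Col16a1, a fibril-associated collagen, had 243 of 341 UMIs (71.3%) in conventional dendritic-like cells. There it stood at 3.85 CPM in both perfused libraries, 32.2 CPM in CS and 33.5 CPM in naive. Of the perfused dendritic-like cells, most were in cluster 12, whereas cluster 22, which has Xcr1 and Clec9a among its leading genes, held 237 of the Col16a1 UMIs. Col22a1, also fibril-associated, had 84 of 92 UMIs (91.3%) in Kupffer-like cells, and Col26a1 had 38 of 40 UMIs in NK-like cells of cluster 23.

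Within endothelial-like cells, NEVLPcty exceeded NEVLP2 most clearly in Lama5, Col4a5, Col4a4 and Col4a3, whereas Col4a1 and Col4a2 were close to level. Of 29 genes with at least 10 UMIs in the pair of libraries, 6 were at least 2-fold higher, where 15.3% of all 12565 genes were, and 2 were at least 2-fold lower, where 6.55% were. A total of 18 of the 29 lay above a ratio of 1. The members' median was 0.24 on the log2 scale and that of all genes 0.33. With such a shift in the typical gene, 2 rescalings were also used, TMM (trimmed mean of M values) and median-ratio size factors, which lowered every log2 ratio by 0.26 and 0.35. Summed over all members, the level was 2051 CPM in NEVLPcty and 1745 CPM in NEVLP2, a ratio of 1.18 (95% limits 1.16 to 1.19), which turned to 0.985 under TMM, 0.923 under median-ratio factors and 0.746 with the stricter mitochondrial limit (at most 10%). All limits printed are exact 95% limits (ratios by the conditional binomial distribution, levels by the Poisson and cell shares by the binomial) and cover counting error only, not the spread between animals. No p-value is given, as no group has a replicate.

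Col4a1 and Col4a2 form the collagen IV trimer of nearly all basement membranes. Col4a1 stood at 1152 CPM in NEVLPcty, 1143 CPM in NEVLP2, 591 CPM in CS and 1037 CPM in naive. The NEVLPcty over NEVLP2 ratio was 1.01 (0.99 to 1.03), or 0.84 under TMM. Its partner Col4a2 stood at 104 CPM, 97.1 CPM, 47.4 CPM and 72.4 CPM in NEVLPcty, NEVLP2, CS and naive, with a ratio of 1.07 (1.00 to 1.14), or 0.89 under TMM. Both chains were thus close to level in the perfused libraries and lowest in CS. With the stricter mitochondrial limit the ratios were 0.49 for Col4a1 and 0.51 for Col4a2, and with clusters named by their fold over all other cells they were 1.64 and 1.61. In both settings different clusters carried the endothelial name.

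The other collagen IV chains behaved otherwise. Col4a3, Col4a4 and Col4a5 form the collagen IV trimer best known from the kidney glomerulus. Col4a4 stood at 211 CPM in NEVLPcty, 93.3 CPM in NEVLP2, 378 CPM in CS and 489 CPM in naive. It was thus lowest in NEVLP2 and the NEVLPcty over NEVLP2 ratio was 2.26 (2.13 to 2.40), or 1.89 under TMM, 1.77 under median-ratio factors and 1.5 with clusters named by fold over all other cells. The level of Col4a3, its neighbour across the shared stretch of 412 bases, was 8.53 CPM in NEVLPcty, 4.30 CPM in NEVLP2, 19.5 CPM in CS and 36.2 CPM in naive, the same order, with a ratio of 1.99 (1.5 to 2.66). Col4a5 stood at 5.30 CPM in NEVLPcty, 2.11 CPM in NEVLP2, 3.55 CPM in CS and 13.6 CPM (3 UMIs) in naive, a ratio of 2.51 (1.70 to 3.82) that ranged between 1.23 and 4.92 over the alternatives.

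**Figure D2:**
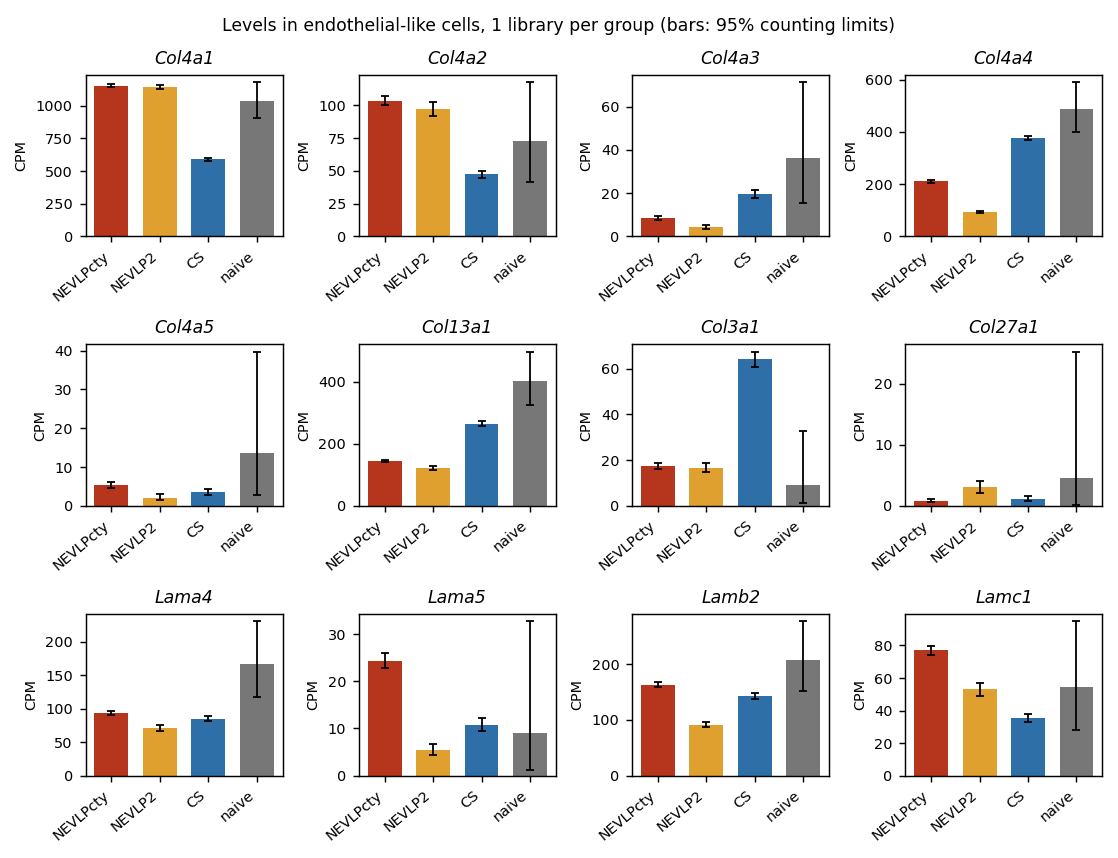
Level of 12 collagen and laminin genes in endothelial-like cells (CPM, linear axes from 0) in NEVLPcty, NEVLP2, CS and naive, with exact 95% Poisson limits as error bars. Col4a1 and Col4a2 are lowest in CS, Col4a4 and Col13a1 are lower in both perfused libraries than in CS and naive, Lama5 is highest in NEVLPcty, and naive has wide limits from its 61 cells.

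Among laminins, Lama5, the alpha chain of mature vascular basement membrane, stood furthest apart. It had 24.3 CPM in NEVLPcty (888 UMIs), 5.42 CPM in NEVLP2 (77 UMIs), 10.8 CPM in CS and 9.05 CPM (2 UMIs) in naive. NEVLPcty was the highest of the libraries with more than 3 UMIs, at 4.48 times NEVLP2 (3.54 to 5.73), 3.75 times under TMM and 2.60 times with clusters named by fold over all other cells. Lamb2, the beta chain of adult vessels, stood at 164 CPM in NEVLPcty, 91.4 CPM in NEVLP2, 143 CPM in CS and 208 CPM in naive, with a NEVLPcty over NEVLP2 ratio of 1.79 (1.69 to 1.90), or 1.5 under TMM and 1.18 with the stricter mitochondrial limit. Lamc1, the gamma chain shared by most laminins, stood at 77.1, 52.9, 35.2 and 54.3 CPM in NEVLPcty, NEVLP2, CS and naive. Its ratio of 1.46 (1.34 to 1.58) became 0.87 with the stricter mitochondrial limit. Lama4, the other main endothelial alpha chain, stood at 93.0, 70.5, 84.7 and 167 CPM in NEVLPcty, NEVLP2, CS and naive, with a ratio of 1.32 (1.23 to 1.42), or 0.91 with the stricter mitochondrial limit. All 4 of these chains of the endothelial laminins were thus higher in NEVLPcty than in NEVLP2 by CPM, TMM and median-ratio factors, whereas Lama4 and Lamc1 lay below 1 with the stricter mitochondrial limit. Lamb1 had 36 UMIs in NEVLPcty and 21 in NEVLP2, a ratio of 0.67 (0.38 to 1.20).

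For the main fibrillar collagens, types I and III, the limits of the ratio between the perfused libraries included 1. Col3a1 had 17.5 CPM in NEVLPcty, 16.7 CPM in NEVLP2, 64.0 CPM in CS and 9.05 CPM (2 UMIs) in naive. Its NEVLPcty over NEVLP2 ratio was 1.05 (0.90 to 1.23), or 0.88 under TMM, 2.28 with the stricter mitochondrial limit and 0.57 with clusters named by fold over all other cells. Col5a2, which sits in collagen fibrils with types I and III, had 23.0, 15.0, 40.4 and 31.7 CPM in NEVLPcty, NEVLP2, CS and naive, a ratio of 1.54 (1.32 to 1.79). Col1a1 had 0.79 CPM (29 UMIs) in NEVLPcty and 0.99 CPM (14 UMIs) in NEVLP2, a ratio of 0.80 (0.41 to 1.65). Col27a1, a minor fibrillar collagen, was lower, at 0.85 CPM in NEVLPcty and 3.03 CPM in NEVLP2, a ratio of 0.28 (0.17 to 0.45) that stayed between 0.22 and 0.51 over the alternatives.

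Of the other members, the transmembrane collagen Col13a1 had 145 CPM in NEVLPcty, 123 CPM in NEVLP2, 265 CPM in CS and 403 CPM in naive, with a NEVLPcty over NEVLP2 ratio of 1.18 (1.12 to 1.24) that was 0.99 under TMM and 0.73 with clusters named by fold over all other cells. Both perfused libraries were below CS and naive. The beaded collagen Col6a5 had 15 UMIs in NEVLPcty and 28 in NEVLP2, a ratio of 0.21 (0.10 to 0.40). Col11a2 and Col16a1, also past 2-fold, rested on 2 and 3 NEVLP2 UMIs, with ratios of 3.49 (0.84 to 31.0) and 3.23 (0.99 to 16.7). The limits of both include 1.

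Because the perfused libraries filled different clusters, NEVLPcty was also compared with NEVLP2 inside each cluster with at least 50 cells of both. In cluster 0 there were 5059 NEVLPcty and 124 NEVLP2 cells, in cluster 3 there were 100 and 2125, in cluster 9 there were 724 and 247, and in cluster 27 there were 175 and 88. Lama5 was higher in NEVLPcty in each, at ratios of 2.34 (1.18 to 5.43) in cluster 0, 5.75 (2.77 to 11.0) in cluster 3, 1.13 (0.52 to 2.70) in cluster 9 and 2.89 (1.56 to 5.75) in cluster 27. The limits in cluster 9 include 1. For Col4a4 the ratio was 1.77 (1.44 to 2.19) in cluster 0 and 3.65 (1.90 to 7.70) in cluster 27, but 1.08 (0.80 to 1.44) in cluster 3 and 1.17 (0.99 to 1.39) in cluster 9. Thus the 2.26-fold ratio of Col4a4 over the whole class was not found inside clusters 3 and 9. For Col4a1 the ratio was 1.06 (0.99 to 1.13) in cluster 0, 0.73 (0.66 to 0.80) in cluster 3, 1.20 (1.08 to 1.33) in cluster 9 and 0.95 (0.85 to 1.06) in cluster 27, with no common direction. Lamb2 was above 1 in all 4 clusters, from 1.15 in cluster 9 to 1.59 in cluster 0. In the unnamed cluster 6, 10 of 13 members lay above 1, with a median of 0.44 on the log2 scale against 0.25 for all genes. There 3 were at least 2-fold higher, where 17.5% of all genes were, namely Lama5 at 2.83 (0.73 to 24.2, on 2 NEVLP2 UMIs), Lamb2 at 2.04 (1.27 to 3.50) and Lamc1 at 3.46 (1.44 to 10.9). A single one was lower, where 7.31% of all genes were: Col5a1, a minor fibrillar chain, at 4.26 CPM in NEVLPcty and 16.7 CPM in NEVLP2, a ratio of 0.25 (0.065 to 1.19). The other fibrillar or beaded collagens of cluster 6 had ratios of 1.15 (0.59 to 2.49) for Col3a1, 0.64 (0.28 to 1.73) for Col5a2 and 0.62 (0.20 to 2.52) for Col6a2, all with limits that include 1.

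**Figure D3:**
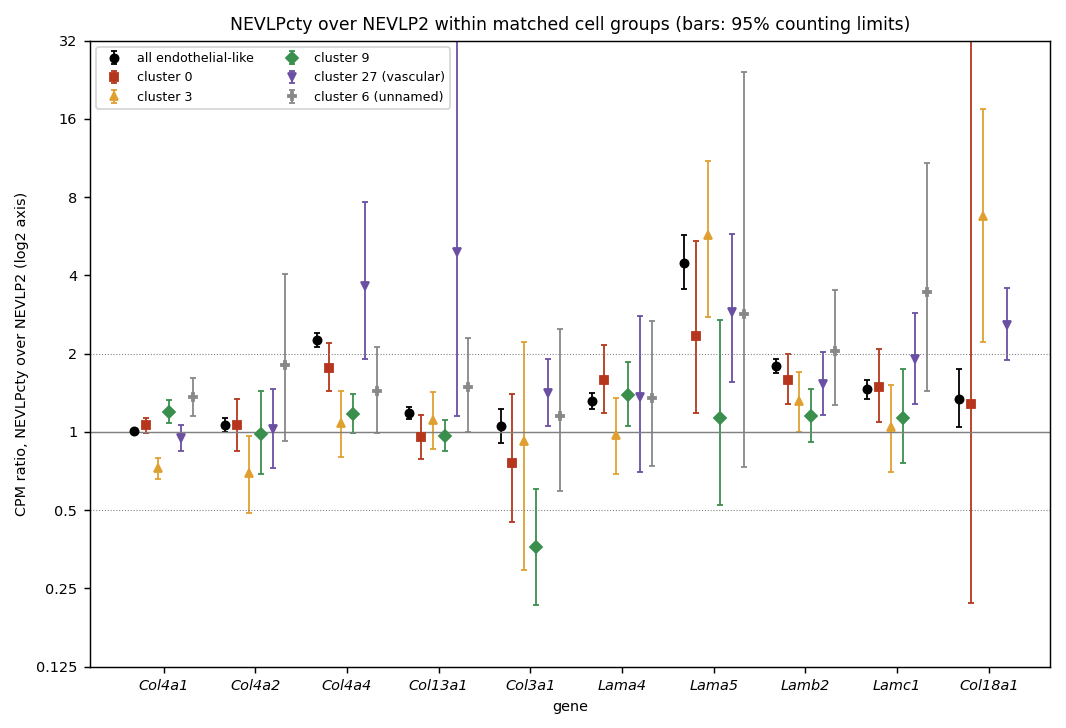
CPM ratio of NEVLPcty over NEVLP2 for 10 genes (log2 axis) in all endothelial-like cells and within clusters 0, 3, 9, 27 and 6, with exact 95% limits as bars; dotted lines mark 2-fold, and 2 bars run past the top of the axis. Lama5 lies above 1 in every cluster drawn, Col4a4 lies near 1 in clusters 3 and 9, and Col4a1 lies below 1 in cluster 3 and above it in cluster 9.

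A small set of endothelial-like cells, 178 in NEVLPcty, 89 in NEVLP2, 153 in CS and 0 in naive, carried vascular markers such as Vwf and Selp in place of Stab2. They held 204 of the 270 endothelial-like Col18a1 UMIs in NEVLPcty, 56 of 78 in NEVLP2 and 69 of 79 in CS. Of 17 members measured in them, 4 were at least 2-fold higher in NEVLPcty than in NEVLP2 and 2, Col6a1 and Col6a2, were lower, where 18.7% and 5.85% of all genes were. Both lower values rest on very few cells. In cluster 27, which held nearly all perfused cells of this set, Col6a1 was found in 2 cells and Col6a2 in 3. In NEVLP2 over CS, 1 of 19 (Col4a1) was higher and 10 were lower, where 11.9% and 45.6% of all genes were. Col18a1, a basement membrane collagen whose end is cut off as endostatin, had 150 CPM there in NEVLPcty, 62.8 CPM in NEVLP2 and 62.7 CPM in CS, a NEVLPcty over NEVLP2 ratio of 2.38 (1.76 to 3.26). Lama5 had 41.8 CPM there in NEVLPcty, 14.6 CPM in NEVLP2 and 28.2 CPM in CS. Col3a1 had 111 CPM in NEVLPcty, 77.4 CPM in NEVLP2 and 1142 CPM in CS. The vascular-marker cells of CS held 1256 of its 1517 endothelial-like Col3a1 UMIs and formed a cluster of their own (30), led by Eln and Fbln2. In the sinusoidal-marker cells the NEVLP2 over CS ratio of Col3a1 was 1.09 (0.89 to 1.33), so the difference over the whole class lay in the vascular-marker cells. Dcn stood at 38.6 CPM in NEVLPcty and 223 CPM in NEVLP2 cells of cluster 27, against 388 CPM in CS cells of cluster 30. These levels rest on few cells: Dcn was found in 6 of the 157 cells of cluster 30, and 3 NEVLP2 cells held 200 of the 214 Dcn UMIs of that library. The part of fibroblast transcripts in Col3a1 there was not tested.

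In hepatocyte-like cells, which were mostly a different cluster in each library, Col18a1 stood above the level of lymphoid cells in all 4. It had 21.6 CPM in NEVLPcty, 22.0 CPM in NEVLP2, 7.24 CPM in CS and 39.5 CPM in naive. In the CS cells of the unnamed cluster 4, left out of this class, it had 10.1 CPM. In T-, NK- and B-like cells as a group it had 1.61, 1.45, 1.59 and 0.87 CPM. After each cell was thinned to 1000 UMIs, 2.36% of NEVLPcty, 1.95% of NEVLP2, 0.67% of CS and 3.23% of naive hepatocyte-like cells carried Col18a1 (5.62, 3.43, 1.41 and 9.43% before thinning). Thinning left out 206, 1044, 106 and 171 hepatocyte-like cells that were shallower. In the lymphoid cells the thinned share was 0 of 577, 0 of 532, 1 of 786 (0.13%) and 0 of 602, where 0 counts allow up to 0.52%, 0.56% and 0.50% in NEVLPcty, NEVLP2 and naive. Median depth was 1403 to 2043 UMIs in hepatocyte-like and 4381 to 8478 UMIs in lymphoid cells. The NEVLPcty over NEVLP2 ratio of Col18a1 in hepatocyte-like cells was 0.98 (0.75 to 1.29).

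The collagen IV genes in hepatocyte-like cells were near the lymphoid level in some libraries and above it in others. Col4a1 had 33.4 CPM in NEVLPcty, 22.6 CPM in NEVLP2, 21.2 CPM in CS and 0.32 CPM in naive hepatocyte-like cells, against 37.7, 7.54, 13.4 and 0.52 CPM in lymphoid cells of the same libraries. Naive, with 61 endothelial-like cells, had the least in both. For Col4a4 the levels were 5.52, 2.33, 9.82 and 0.64 CPM in hepatocyte-like cells and 6.77, 0.87, 9.29 and 1.74 CPM in lymphoid cells of NEVLPcty, NEVLP2, CS and naive. After thinning, Col4a1 was in 2.09, 2.16, 2.41 and 0% of hepatocyte-like cells and in 4.51, 0.56, 1.40 and 0% of lymphoid cells, so the hepatocyte-like value was at or below the lymphoid one in NEVLPcty and naive and above it in NEVLP2 and CS. The part of free RNA in these values was not tested. Of 11 genes measured in hepatocyte-like cells, 4 were at least 2-fold higher in NEVLPcty than in NEVLP2 (7.08% of all genes) and 1 was lower (9.1%). The 4 were Col4a2, Col4a4, Lamb2 and Lamb3, on 5 to 22 UMIs a library. No member was past 2-fold after thinning to 1000 UMIs. The minimum of 10 UMIs held for the thinned counts too. Genes on so few UMIs can leave the count without a change in ratio, so the 0 does not show that the ratios fell. In NEVLP2 over CS, 1 of 10 was higher (Col18a1, 3.04, 1.75 to 5.69) and 4 were lower, where 29.1% and 9.02% of all genes were. In CS over naive, 4 of 5 were higher and 1, Col18a1 at 0.18 (0.10 to 0.32), was lower, where 13.8% and 8.17% of all genes were. With the lymphoid level subtracted the counts became 3 in NEVLP2 over CS and 2 in CS over naive.

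**Figure D4:**
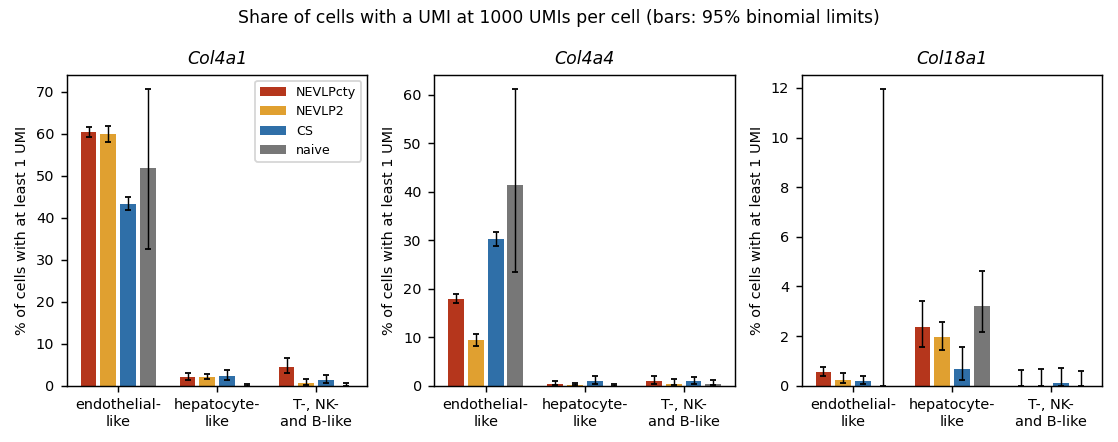
Share of cells with at least 1 UMI of Col4a1, Col4a4 or Col18a1 after thinning to 1000 UMIs per cell, in endothelial-like, hepatocyte-like and T-, NK- and B-like cells of NEVLPcty, NEVLP2, CS and naive, with exact 95% binomial limits. Endothelial-like cells carried Col4a1 in 43.3 to 60.4% of cells, and Col18a1 is the gene of the 3 with a higher share in hepatocyte-like cells than in the other classes drawn, in each library.

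After thinning, the shares of endothelial-like cells with Col4a1 and with Col4a4 had the same order over the libraries as their levels, but before thinning they did not. After thinning, Col4a1 was found in 60.4% of NEVLPcty cells, 59.9% of NEVLP2 cells, 43.3% of CS cells and 51.7% of naive cells (94.0, 90.0, 89.0 and 67.2% before thinning). Col4a4 was found in 17.9, 9.39, 30.1 and 41.4% of them (57.5, 31.3, 77.5 and 41.0% before thinning). For Lama5 the shares were 2.02% in NEVLPcty, 0.57% in NEVLP2 and 0.90% in CS, and 0 of 29 in naive, which allows a share of up to 10.3%. Thinning left out 40, 128, 20 and 32 of the endothelial-like cells of NEVLPcty, NEVLP2, CS and naive.

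Over all retained cells, the members' levels followed the share of endothelial-like cells. They summed to 1255 CPM in NEVLPcty, 462 CPM in NEVLP2, 756 CPM in CS and 50.9 CPM in naive. Of 38 genes measured, 18 were at least 2-fold higher in NEVLPcty than in NEVLP2 and 4 were lower, where 16.0% and 8.06% of all genes were. For NEVLP2 over CS 6 of 37 were higher and 17 lower, where 9.44% and 36.7% of all genes were. This split became 11 higher and 10 lower under TMM, where no share of all genes was taken. For CS over naive 21 of 34 were higher and 5 lower, where 23.6% and 11.5% of all genes were. Endothelial-like cells made up 57.8, 27.7, 40.8 and 1.90% of NEVLPcty, NEVLP2, CS and naive, and how far that sets these counts was not tested.

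NEVLP2 over CS, the comparison of warm perfusion with cold storage, showed opposite directions for the collagen IV pairs in endothelial-like cells. Of 27 genes measured, 6 were at least 2-fold higher, where 11.5% of all genes were, and 9 were lower, where 44.7% were. The members' median was 0.04 on the log2 scale against -0.79 for all genes. TMM and median-ratio factors raised every log2 ratio by 0.75 and 0.83, and the median of all genes was then -0.04 and 0.04. They gave 12 higher and 6 lower, and 13 higher and 5 lower. The shares of all genes above are by CPM and do not apply to these rescaled counts, for which no such share was taken. Col4a1 had a ratio of 1.93 (1.89 to 1.98) and Col4a2 of 2.05 (1.89 to 2.22), 3.25 and 3.45 under TMM; the Col4a1 ratio was 1.19 with clusters named by fold over all other cells. Col4a4 had a ratio of 0.25 (0.23 to 0.26) and Col4a3 of 0.22 (0.17 to 0.29), 0.42 and 0.37 under TMM. So the directions of both pairs were the same by CPM and by TMM. The directions of Lama4, Lamb2 and Col4a5, at 0.83, 0.64 and 0.60, turned under rescaling, whereas Lamc1 was above 1 by CPM, at 1.5 (1.36 to 1.66), and under TMM, at 2.53. Col1a1 had 14 UMIs in NEVLP2 and 125 in CS, a ratio of 0.19 (0.10 to 0.33), and Col6a5 had 28 UMIs in NEVLP2 and 0 in CS, at least 15.6-fold higher with a floor of 3 UMIs. The Col3a1 ratio was 0.26 (0.23 to 0.30), but 1.31 to 2.12 under 4 alternatives (the stricter mitochondrial limit, no doublets removed, doublets at Scrublet's own limit, and clusters named by fold over all other cells).

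CS over naive was limited by the naive library. Of 15 genes measured in endothelial-like cells, Col3a1 was higher, where 9.56% of all genes were, and 3, namely Col16a1, Col27a1 and Col4a5, were lower, where 12.8% were. All 4 rested on 1 to 3 naive UMIs, with limits of 1.95 to 58.5 around 7.07 for Col3a1. For Col4a1 the ratio was 0.57 (0.50 to 0.65), for Lama4 0.51 (0.37 to 0.72) and for Col13a1 0.66 (0.53 to 0.82). The naive cells of cluster 3, with a median of 568 UMIs, and those of cluster 11, the second largest naive group with 18 cells, differed in Col4a1 at 1853 and 727 CPM. In cluster 11, CS had 704 CPM of Col4a1 in 874 cells against the 727 CPM of naive.

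The genes that make, cut and bind collagen were set beside the members in endothelial-like cells, NEVLPcty over NEVLP2. Of all 12565 genes, 15.3% were at least 2-fold higher there and 6.55% lower. Of 24 measured genes of collagen synthesis and cross-linking, 3 were at least 2-fold higher and 3 lower, with a median log2 ratio of 0.55 against 0.33 for all genes. In the sinusoidal-marker cells alone, which were 12344 of the 12764 endothelial-like cells, 5 of 23 were higher and 1 lower. Their median was 0.64 against 0.34 for all genes. Examples over the whole class, with at least 50 UMIs, were the prolyl hydroxylase P3h3 at 2.07 (1.80 to 2.38), the collagen glycosyltransferase Colgalt2 at 2.85 (1.71 to 5.05) and the lysyl hydroxylase Plod2 at 0.54 (0.37 to 0.78). Of 17 genes of matrix degradation, 2 were higher and 6 lower over the whole class, with a median of -0.10. In the sinusoidal-marker cells 2 were higher and 4 lower, with a median of -0.02. The gelatinase Mmp9 stood at 4.59 CPM in NEVLPcty and 54.0 CPM in NEVLP2, a ratio of 0.09 (0.07 to 0.10). Mmp14, a membrane-bound collagenase, stood at 45.4 CPM in NEVLPcty and 21.8 CPM in NEVLP2, a ratio of 2.09 (1.85 to 2.36). Mmp9 and Mmp14 thus lay in opposite directions.

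Of 24 other matrix genes, 4 were higher and 5 lower over the whole class, with a median of -0.16. In the sinusoidal-marker cells alone the balance was the other way. There 6 of 21 were higher and 2 lower, with a median of 0.45 against 0.34 for all genes. The single-gene values that follow are those of the whole class. Sparc, a collagen-binding matrix protein, stood at 1135 CPM in NEVLPcty and 453 CPM in NEVLP2, a ratio of 2.50 (2.44 to 2.57), and Ltbp4, which binds latent TGF-β, was at 2.68 (2.43 to 2.96). Furthest the other way was Dcn, a collagen-binding proteoglycan of fibroblasts, at 1.67 CPM in NEVLPcty and 14.5 CPM in NEVLP2, a ratio of 0.11 (0.08 to 0.15). That ratio rests on few cells: over all retained cells, 3 NEVLP2 cells held 200 of 214 Dcn UMIs and 5 NEVLPcty cells held 53 of 64. The basement membrane protein Nid2 was at 0.57 (0.44 to 0.74). Of 12 matrix receptors, 2 were higher and 2 lower over the whole class, with a median of 0.26. In the sinusoidal-marker cells 3 were higher and 1 lower, also with a median of 0.26. Over the whole class, both higher ones bind laminin, Bcam at 2.05 (1.92 to 2.18) and Dag1 at 2.20 (1.99 to 2.44). The lower ones were Itgb4, an integrin chain that also binds laminin, at 0.46 (0.32 to 0.67), and the hyaluronan receptor Cd44 at 0.33 (0.20 to 0.54), so the laminin-binding receptors lay in both directions. Of 23 genes of the TGF-β pathway, 1 was higher and 3 lower over the whole class, with a median of 0.07. In the sinusoidal-marker cells 3 were higher and 2 lower, with a median of 0.18. Over the whole class, the higher one was the co-receptor Tgfbr3 at 2.29 (2.18 to 2.41). Among the lower ones were Acta2, a smooth muscle actin, at 0.09 (0.06 to 0.13), and Bambi, a decoy receptor, at 0.49 (0.44 to 0.54).

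Over 39 sums of a class in a library, the genes whose log2 level ran closest to Col4a1 were Rhoj (Pearson r of 0.98), Adgrl4 (0.98), Sox17 (0.97), Fstl1 (0.97) and Lrrc32 (0.97). For Lamc1 they were Thsd1 (0.85), Zfp521 (0.84), Lifr (0.82), Emilin1 (0.82) and Sox18 (0.82), and for Col1a1 they were Tril (0.94), Fkbp6 (0.93), Itgb6 (0.93), Armcx1 (0.93) and Samd14 (0.93). The 39 points share 4 libraries and their depth, so the values describe these libraries only. Those of Col1a1 rest on 192 UMIs in 31 cells, with 51.6% of them in 3 cells, and so on very few cells.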

How the data were processed

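RNA of single cells from 4 rat liver libraries was counted by the authors with Cell Ranger (version 6.0.0 per the file headers, 2.1.1 per the submitters' processing notes), and the deposited values are UMI counts per gene and barcode, not normalized. Neither the labels nor the headers name a genome build. No column was left unused (0). Pairs of libraries shared 11 to 35 barcodes, which were kept.

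A cell was kept if it had at least 200 genes, at least 500 UMIs and a mitochondrial share of at most 20%. Doublets were taken as the highest Scrublet scores, at 0.8% per 1000 cells, which removed 1079 (NEVLPcty), 830 (NEVLP2), 933 (CS) and 87 (naive); Scrublet's own limit called 199, 205, 339 and 6. With scanpy 1.11.5 and leidenalg 0.10.2, 2000 variable genes without the collagen and laminin genes, 30 components, 15 neighbours and resolution 1 gave 35 clusters, named from marker lists by the fold of a list over the cells of clusters led by other lists, a rule chosen after marker levels were seen; naming by fold over all other cells, tried first, is given as an alternative. UMIs were summed per class and library. A gene was called past 2-fold in CPM where both libraries held at least 10 UMIs together, with a floor of 3 UMIs for a library at 0. Alternatives included edgeR 4.0.16 TMM factors. The calls were tested only on Poisson counts simulated at the class totals, with large changes set in genes with many UMIs. No spread between cells or animals was simulated, so that test does not cover calls that rest on few UMIs or few cells.

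Genes named in full were the 8 with the most UMIs in the endothelial-like and hepatocyte-like classes and, among those with at least 50 UMIs, at most 5 each way past 2-fold; other names were chosen after their values were seen. The members and lists were chosen with earlier results of these data known. The comparisons planned in stellate or fibroblast-like cells exist only under that alternative, since no cluster had the name otherwise. Results on some genes are not reported here.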

Additional observations from a re-analysis of the deposited data

Results flagged for a closer look

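Several genes had opposite directions in different cell groups under the same contrast. None of these differences was tested, since each group is 1 library, and the limits cover counting error only.

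In NEVLP2 over CS, sinusoidal-marker and vascular-marker endothelial-like cells lay on opposite sides of 1. Col14a1, a fibril-associated collagen, had a ratio of 4.82 (3.02 to 7.94) in sinusoidal-marker cells and 0.215 (0.054 to 0.628) in vascular-marker cells. For Lamb1 the ratios were 3.4 (1.45 to 8.58) and 0.247 (0.046 to 0.873), and for Col6a2 they were 1.97 (1.11 to 3.51) and 0.463 (0.266 to 0.777), in the same 2 groups. The vascular-marker values rest on few cells, which the limits do not cover. Col14a1 was found in 6 cells of cluster 27 and 9 of cluster 30, Lamb1 in 3 and 8, and Col6a2 in 3 and 4. The vascular-marker cells of CS were in cluster 30 and those of NEVLP2 in cluster 27, so the cells compared were not the same cluster.

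In NEVLPcty over NEVLP2, Col3a1 had a ratio of 1.43 (1.07 to 1.93) in vascular-marker cells and 0.36 (0.216 to 0.603) in cluster 9. Col4a1 had a ratio of 1.48 (1.17 to 1.88) in hepatocyte-like cells and 0.725 (0.66 to 0.796) in cluster 3 of the endothelial-like cells. In lymphoid cells, Col4a1 stood at 37.7 CPM in NEVLPcty and 7.54 CPM in NEVLP2, and hepatocyte-like cells at 33.4 CPM in NEVLPcty, below the lymphoid level, and 22.6 CPM in NEVLP2, so no ratio is given after subtraction. With doublets at Scrublet's own limit the hepatocyte-like ratio was 0.82.

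In CS over naive, hepatocyte-like and sinusoidal-marker cells lay apart. Col4a1 had a ratio of 66.0 (11.2 to 2671) in hepatocyte-like cells, on 41 CS UMIs and 1 naive UMI, and 0.586 (0.514 to 0.67) in sinusoidal-marker cells. Col4a4 had ratios of 15.3 (3.69 to 135.5) and 0.799 (0.661 to 0.975) in the same groups. Lymphoid cells had 13.4 CPM of Col4a1 in CS and 0.52 CPM in naive.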

How the results depend on the processing

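Over the alternatives tried, 127 values of the main comparisons moved by less than the limits set and 24 moved; of the ratios of single genes and of summed levels 289 did not move past them and 179 did. Of the 356 values of single genes, 42 lay on the other side of 1 from the value reported, in Col3a1, Col4a1, Col4a2, Col4a5, Col13a1, Col18a1, Lama4, Lamb2 or Lamc1; in 38 the reported ratio was within 2-fold, and the other 4 are those of Col3a1 below. Of the 112 values of summed levels, 15 did. No paired analysis was possible because each group is 1 library and the labels give no replicate numbers. For the same reason no replicate could be left out. A stellate or fibroblast-like class existed only with clusters named by fold over all other cells, so its comparisons have no alternatives. The spread between animals is unknown, and the naive endothelial-like values rest on 61 cells.

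Counts of genes past 2-fold moved as follows. With cells thinned to 1000 UMIs, endothelial-like NEVLP2 over CS had 8 in place of 15, hepatocyte-like cells had 0 in place of 5 for NEVLPcty over NEVLP2, 3 in place of 5 for NEVLP2 over CS and 2 in place of 5 for CS over naive, and all retained cells had 13 in place of 26 for CS over naive. Thinning removes UMIs while the minimum of 10 stays, so these lower counts also include genes that may have dropped under the minimum. No share of all genes is given beside the counts of this paragraph. With each library clustered alone, endothelial-like CS over naive had 7 in place of 4, and at a fold of 1.5 it had 10. With no doublets removed, hepatocyte-like cells had 10 for NEVLPcty over NEVLP2 and 8 for NEVLP2 over CS. With the lymphoid level subtracted, they had 3 for NEVLP2 over CS and 2 for CS over naive.

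The endothelial-like share of collagen and laminin UMIs was 92.6%, but 46.0% with at most 10% mitochondrial UMIs, 88.1% with no doublets removed, 89.7% at Scrublet's own limit, 92.2% clustered with the members, 81.0% with each library clustered alone, 66.9% at resolution 2, 82.4% as a mean over cells, 88.3% after thinning and 95.7% with the lymphoid level subtracted. It was 74.7% with clusters named by fold over all other cells and 96.3% with clusters 6 and 10 added, both chosen after seeing the data. The share of NEVLPcty endothelial-like cells with Col4a1 at 1000 UMIs, as the mean chance over all draws (a single draw gave 60.4%), was 61.5%, but 36.6% with at most 10% mitochondrial UMIs and 55.02% at resolution 2. Col3a1 in NEVLP2 over CS was 0.261, but 1.35 with at most 10% mitochondrial UMIs, 1.31 with no doublets removed, 1.34 at Scrublet's own limit and 2.12 with clusters named by fold over all other cells. The cause of these moves was not tested.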
